A study of Homo sapiens with 4 samples.

Results

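The Frizzled receptor family, FZD1 to FZD10, was described in mammospheres grown from the established breast cancer line MDA-MB-468, which is basal-like and triple-negative. Its members were taken by symbol, and all 10 were among the 26475 genes with a read count in each library. FZD10 stayed under 10 reads in every library, which left 9 members among the 15204 genes compared. RNA was sequenced from 4 conditions with 1 library each, after 7 days of culture as floating spheres. CTL was a control without doxycycline and CTL+dox the same control with it. gRNA2 cells carried an inducible guide against TCOF1 and received no doxycycline, and gRNA2+dox cells received doxycycline to induce the TCOF1 knockout. The labels give the first 3 conditions as wild type. The study described its TCOF1 knockout lines as sorted for an mCherry-marked Cas9 and a GFP-marked vector for the inducible guide. No cloning of cells was described, and the sorting was not stated separately for these cultures. Each library combined several plates. The dose and length of doxycycline exposure for these cultures, and whether the CTL vector held a guide, are not settled by the sources used here.

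Frizzled receptors are seven-pass membrane proteins that bind WNT ligands through a cysteine-rich extracellular domain. With the co-receptors LRP5 or LRP6 they recruit Dishevelled, which stops the breakdown of beta-catenin, whereas with ROR or RYK co-receptors and the VANGL and CELSR proteins they act in cell polarity and movement. In breast epithelium WNT signalling is known for its part in the upkeep of basal and progenitor cells. Sequence relatedness divides the family into FZD1, FZD2 and FZD7, then FZD5 and FZD8, then FZD3 and FZD6, then FZD4, FZD9 and FZD10, and the values below follow these subgroups.

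TCOF1, the targeted gene and a nucleolar factor of ribosome production, had 1019, 754, 1318 and 437 reads in CTL, CTL+dox, gRNA2 and gRNA2+dox. Scaled to library size, these were 49.9, 33.5, 50.6 and 20.01 counts per 1000000 counts (CPM). TCOF1 was thus lowest in the knockout library, but it was also lower in CTL+dox than in either library without doxycycline. The basal epithelial genes KRT5, KRT14, KRT17, EGFR, EPCAM and CDH1 were abundant in all 4 libraries, whereas the leukocyte gene PTPRC had 1 to 2 reads, the endothelial gene CDH5 was listed at 0 and the hormone receptor gene ESR1 had 4 to 13 reads. Of other leukocyte and fibroblast markers, CD14 had 233 to 280 reads and COL1A1 had 358 to 543, whereas CD3E, COL1A2 and PDGFRB had at most 11. The endothelial marker PECAM1 had 3 to 12 reads.

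Gene counts summed to 19960644, 22467410, 26322847 and 22168624 in CTL, CTL+dox, gRNA2 and gRNA2+dox, and 3 reads, taken as the floor of detection, corresponded to 0.115 to 0.147 CPM. The gRNA2+dox library had the lowest share of multimapping reads, 3.39% against 4.02% to 4.85%, and the highest share of reads outside genes, 12.5% against 10.6% to 11.3%. The part of these differences in the values of the receptors was not tested. Log2 ratios between libraries are given with exact 95% Clopper-Pearson intervals of the reads. With 1 library per condition these intervals cover counting error only, and they compare libraries, not conditions. No p-value was therefore computed. In bulk RNA, fewer cells that express a receptor and less RNA per cell cannot be told apart.

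FZD5 and FZD8 are the nearest relatives of each other, and the reads on them moved apart across the libraries, so their upstream sequences are shown first. Each is the 250 bases before the RefSeq start of the gene on GRCh38.p14, read on the strand of the gene, which is the reverse strand for both. The sequence for FZD5 spans chr2:207769907-207770156 and that for FZD8 spans chr10:35642297-35642546. Capitals mark GGGCGG (a GC box), CCAAT and TATAAA on either strand, and overlapping GGGCGG matches run together.
FZD5: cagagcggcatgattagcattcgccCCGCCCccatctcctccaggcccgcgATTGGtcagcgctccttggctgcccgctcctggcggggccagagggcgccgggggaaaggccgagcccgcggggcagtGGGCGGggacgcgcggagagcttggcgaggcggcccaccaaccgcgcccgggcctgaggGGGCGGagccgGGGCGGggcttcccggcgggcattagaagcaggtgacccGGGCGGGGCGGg
FZD8: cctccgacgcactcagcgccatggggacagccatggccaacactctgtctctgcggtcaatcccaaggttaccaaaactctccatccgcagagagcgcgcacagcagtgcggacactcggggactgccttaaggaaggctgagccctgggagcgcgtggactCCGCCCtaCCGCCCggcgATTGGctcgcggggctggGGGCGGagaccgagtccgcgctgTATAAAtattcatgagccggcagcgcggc
The FZD5 sequence held 6 matches to GGGCGG, 1 to CCAAT and 0 to TATAAA, with 76.8% G or C and 30 CpG dinucleotides. The FZD8 sequence held 3 matches to GGGCGG, 1 to CCAAT and 1 to TATAAA, with 65.2% G or C and 24 CpG dinucleotides. Among 27305 promoter sequences of the same length, 42.3% held GGGCGG, 33.0% held CCAAT and 11.1% held TATAAA, and the median was 58.0% G or C with 11 CpG dinucleotides. The core of the TCF/LEF motif, CTTTG, was in neither sequence and in 42.2% of all of them. Of the other members, FZD1, FZD4 and FZD9 had a sequence in the RefSeq table. GGGCGG was found 1 time in FZD1, 6 times in FZD4 and 2 times in FZD9. TATAAA was found in none of these 3, and CTTTG was found 2 times in FZD1. These matches describe the letters of the windows, and no binding was measured.

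Levels of different receptors were compared as RPKM, that is CPM divided by the exon length in kilobases. By the unstranded counts, which ignore the strand of a read, FZD7 was the most abundant receptor transcript in every library. It was followed by FZD6, FZD5, FZD9, FZD1 and FZD3 in the same order in all 4. FZD7 stood 1.72-fold above FZD6 in CTL (interval 1.57 to 1.87) and 1.33-fold above it in gRNA2+dox (1.21 to 1.47). FZD6 in turn stood 2.78-fold above FZD5 in CTL (2.48 to 3.12) and 1.78-fold above it in gRNA2+dox (1.59 to 1.99). The steps at the top of the order were thus smaller in the knockout library than in CTL. In CTL+dox these steps were 1.56-fold and 3.23-fold. In gRNA2, without doxycycline, they were 1.47-fold and 2.27-fold, so they were also smaller there than in CTL. Each step from FZD7 down to FZD3 exceeded counting error in every library. The low end of the order was less settled. FZD8 was seventh in CTL, eighth in CTL+dox and gRNA2 and ninth in gRNA2+dox. Its level differed from that of its neighbours FZD3 and FZD4 by less than counting error in CTL, from FZD4 in CTL+dox, and from FZD2 in gRNA2 and gRNA2+dox. The unstranded counts leave out FZD4 reads in an overlap with another gene, described below. With the reads of both strands added, FZD4 lay above FZD3 in CTL and gRNA2, and further above FZD8 in CTL. The places of FZD3, FZD4 and FZD8 therefore depend on how reads are counted.

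**Figure D1:**
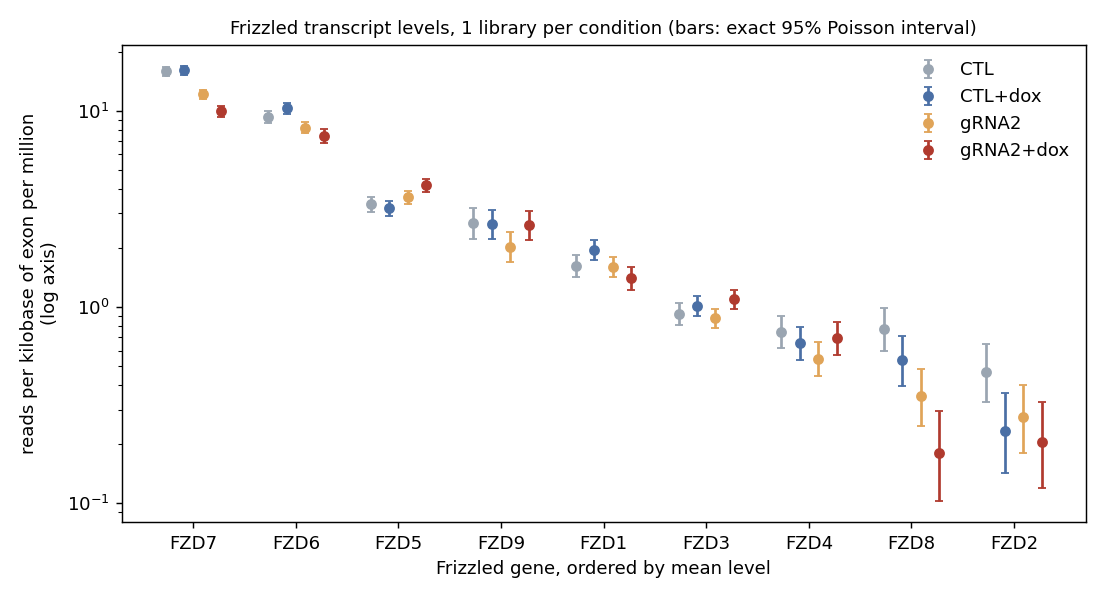
RPKM of the 9 compared receptors (log axis) in each of the 4 libraries, with bars for the exact 95% Poisson interval of the reads. FZD7 lies highest in every library, from 9.91 to 16.04, and FZD8 has its lowest value, 0.181, in gRNA2+dox.

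FZD7, which lies on chromosome 2 (202033855 to 202038441 of GRCh38.p14) and is encoded by 1 exon, is a receptor of WNT/beta-catenin signalling much studied in basal breast cells. It had 1489, 1657, 1446 and 993 reads in CTL, CTL+dox, gRNA2 and gRNA2+dox. These were 72.9, 73.6, 55.5 and 45.5 CPM. The controls with and without doxycycline lay close together, gRNA2 lay below both, and gRNA2+dox was lowest. On the log2 scale, gRNA2+dox differed by -0.29 from gRNA2 (-0.41 to -0.17), by -0.69 from CTL+dox (-0.81 to -0.58) and by -0.68 from CTL (-0.80 to -0.56). The ratio of gRNA2 to CTL, both without doxycycline, was already -0.39 (-0.50 to -0.29), whereas that of CTL+dox to CTL was 0.01 (-0.09 to 0.11).

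FZD1 and FZD2 share the FZD7 subgroup and signal through beta-catenin, FZD2 also through the WNT5A route. FZD1 is encoded on chromosome 7 (91264433 to 91271326). It had 229, 304, 288 and 211 reads in CTL, CTL+dox, gRNA2 and gRNA2+dox, or 11.2, 13.5, 11.1 and 9.66 CPM. Its highest level was in CTL+dox and its lowest in gRNA2+dox. The log2 ratio of these libraries was -0.48 (-0.74 to -0.22). Against gRNA2 and CTL the intervals of FZD1 spanned 0, at -0.19 (-0.46 to 0.07) and -0.21 (-0.49 to 0.06).

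FZD2 is encoded on chromosome 17 (44557484 to 44561262). It had 36, 20, 27 and 17 reads in CTL, CTL+dox, gRNA2 and gRNA2+dox, or 1.76, 0.888, 1.04 and 0.778 CPM. Its one high value was CTL, and the other libraries lay below it. The log2 ratio to CTL was -0.97 in CTL+dox (-1.86 to -0.16), -0.75 in gRNA2 (-1.54 to -0.01) and -1.16 in gRNA2+dox (-2.10 to -0.31). Among the other libraries no difference in FZD2 was detectable at this depth, with -0.40 for gRNA2+dox against gRNA2 (-1.38 to 0.51) and -0.18 against CTL+dox (-1.21 to 0.82).

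FZD8, a receptor of WNT/beta-catenin signalling, is encoded by 1 exon on chromosome 10 from 35638247 to 35642296. It was among the genes that the study itself picked from these libraries, so its lower value in gRNA2+dox is not independent evidence. Apart from these libraries, the study reported less FZD8 mRNA by RT-qPCR in mammospheres after TCOF1 knockout. For FZD8 protein the study reported less by immunoblot in knockout spheroids, a different culture from mammospheres. It also reported that added FZD8 did not restore the formation of mammospheres by knockout cells. FZD8 had 64, 49, 37 and 16 reads in CTL, CTL+dox, gRNA2 and gRNA2+dox, or 3.13, 2.18, 1.42 and 0.733 CPM. The level stepped down from CTL to CTL+dox to gRNA2 to gRNA2+dox, from few reads in each. In log2 units, gRNA2+dox lay -0.94 from gRNA2 (-1.90 to -0.07), -1.54 from CTL+dox (-2.48 to -0.73) and -2.06 from CTL (-2.99 to -1.29). Between the libraries without doxycycline it was -1.13 for gRNA2 against CTL (-1.77 to -0.54), and between the controls it was -0.52 for CTL+dox (-1.09 to 0.03). FZD8 was thus lower in the gRNA2 library than in CTL, without doxycycline in either. TCOF1 had 50.6 CPM in gRNA2 and 49.9 in CTL, and such reads measure neither editing of the gene nor its protein. The cause of this difference in FZD8 was not tested.

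FZD5, which shares 71.8% of its aligned residues with FZD8 and is known for WNT signalling in epithelial tissues, lies on chromosome 2 from 207762598 to 207769906. It had 479, 506, 664 and 642 reads in CTL, CTL+dox, gRNA2 and gRNA2+dox, or 23.5, 22.5, 25.5 and 29.4 CPM. The controls were alike and gRNA2+dox was highest. In log2 units, gRNA2+dox exceeded gRNA2 by 0.21 (0.05 to 0.36), CTL+dox by 0.39 (0.22 to 0.56) and CTL by 0.33 (0.15 to 0.50). For gRNA2 against CTL it was 0.12 (-0.05 to 0.29) and for CTL+dox against CTL -0.06 (-0.25 to 0.12), both spanning 0.

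The ratio of FZD8 reads to FZD5 reads within a library does not depend on how libraries are scaled. It was 0.134, 0.0968, 0.0557 and 0.0249 in CTL, CTL+dox, gRNA2 and gRNA2+dox. The log2 difference of this ratio in gRNA2+dox was -1.16 from gRNA2 (-2.12 to -0.26), -1.96 from CTL+dox (-2.89 to -1.10) and -2.42 from CTL (-3.33 to -1.59). The balance between the paired receptors was therefore shifted towards FZD5 in gRNA2+dox relative to each other library. Between gRNA2 and CTL it differed by -1.26 (-1.91 to -0.63), and between CTL+dox and CTL by -0.46, with an interval (-1.06 to 0.13) that spans 0. This pair and those given further on were chosen after the values were seen.

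FZD3 and FZD6 are both known for planar cell polarity, the alignment of cells within a sheet. FZD3 had 260, 315, 316 and 329 reads in CTL, CTL+dox, gRNA2 and gRNA2+dox, or 12.7, 13.98, 12.1 and 15.1 CPM. It was highest in gRNA2+dox, by a log2 ratio of 0.31 against gRNA2 (0.09 to 0.54) and 0.24 against CTL (0.00 to 0.48, above 0 before rounding), but by 0.11 against CTL+dox the interval spanned 0 (-0.12 to 0.33). FZD6 had 769, 944, 869 and 660 reads, or 37.7, 41.9, 33.4 and 30.2 CPM in the same order. FZD6 was lowest in gRNA2+dox, by -0.47 relative to CTL+dox (-0.62 to -0.33) and -0.32 relative to CTL (-0.47 to -0.17), and its ratio to gRNA2 was -0.14 (-0.29 to 0.00, with the upper end above 0 before rounding). FZD6 was also lower in gRNA2 than in CTL, by -0.17 (-0.32 to -0.03), and higher in CTL+dox than in CTL, by 0.15 (0.02 to 0.29), although with total counts as the scaling this became 0.13 (-0.01 to 0.26).

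Within libraries, FZD3 had 0.338, 0.334, 0.364 and 0.498 reads for each FZD6 read in CTL, CTL+dox, gRNA2 and gRNA2+dox. The first 3 libraries lay close together and gRNA2+dox stood above them. On the log2 scale the difference of this ratio was 0.46 from gRNA2 (0.18 to 0.73), 0.58 from CTL+dox (0.31 to 0.85) and 0.56 from CTL (0.27 to 0.85). Among the 3 other libraries it was -0.02 for CTL+dox against CTL (-0.30 to 0.26) and 0.11 for gRNA2 against CTL (-0.18 to 0.39).

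FZD4, the receptor of norrin in blood vessels of the retina, had 113, 109, 105 and 112 reads in CTL, CTL+dox, gRNA2 and gRNA2+dox, or 5.53, 4.84, 4.03 and 5.13 CPM. FZD9, a gene of the Williams syndrome region on chromosome 7 (73433778 to 73436120), had 128, 139, 124 and 134 reads, or 6.27, 6.17, 4.76 and 6.14 CPM. In both genes gRNA2 was the low library, and gRNA2+dox lay near the controls. FZD4 in gRNA2 differed from CTL by -0.45 (-0.85 to -0.06), and FZD9 by -0.40 (-0.76 to -0.03). Against gRNA2, the knockout library gave 0.36 for FZD9 (0.00 to 0.73, above 0 before rounding) and 0.35 for FZD4 (-0.05 to 0.75). Against CTL+dox both ratios spanned 0, at 0.08 for FZD4 (-0.31 to 0.48) and -0.01 for FZD9 (-0.36 to 0.34).

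The FZD4 values carry a limit of their own. Its exons, on chromosome 11 from 86945679 to 86955395, overlap those of PRSS23 on the opposite strand over 1399 bases, 18.9% of its exon length, and reads there were left out of the unstranded counts. With the reads of both strands added, FZD4 had 164, 157, 186 and 174 reads in CTL, CTL+dox, gRNA2 and gRNA2+dox, or 7.82, 6.78, 6.94 and 7.75 CPM. Relative to CTL, gRNA2 then lay at -0.17 on the log2 scale (-0.48 to 0.14), an interval that spans 0. Some of the added reads may belong to PRSS23, which had 1128 to 1626 reads. For every other member the sum of both strands was within 1 read of the unstranded count. FZD10, encoded on chromosome 12 (130162464 to 130165740), had 3 reads in CTL and was listed at 0 in the 3 other libraries. These values are at or under the floor of 3 reads, so no ratio is given and its absence was not shown.

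**Figure D2:**
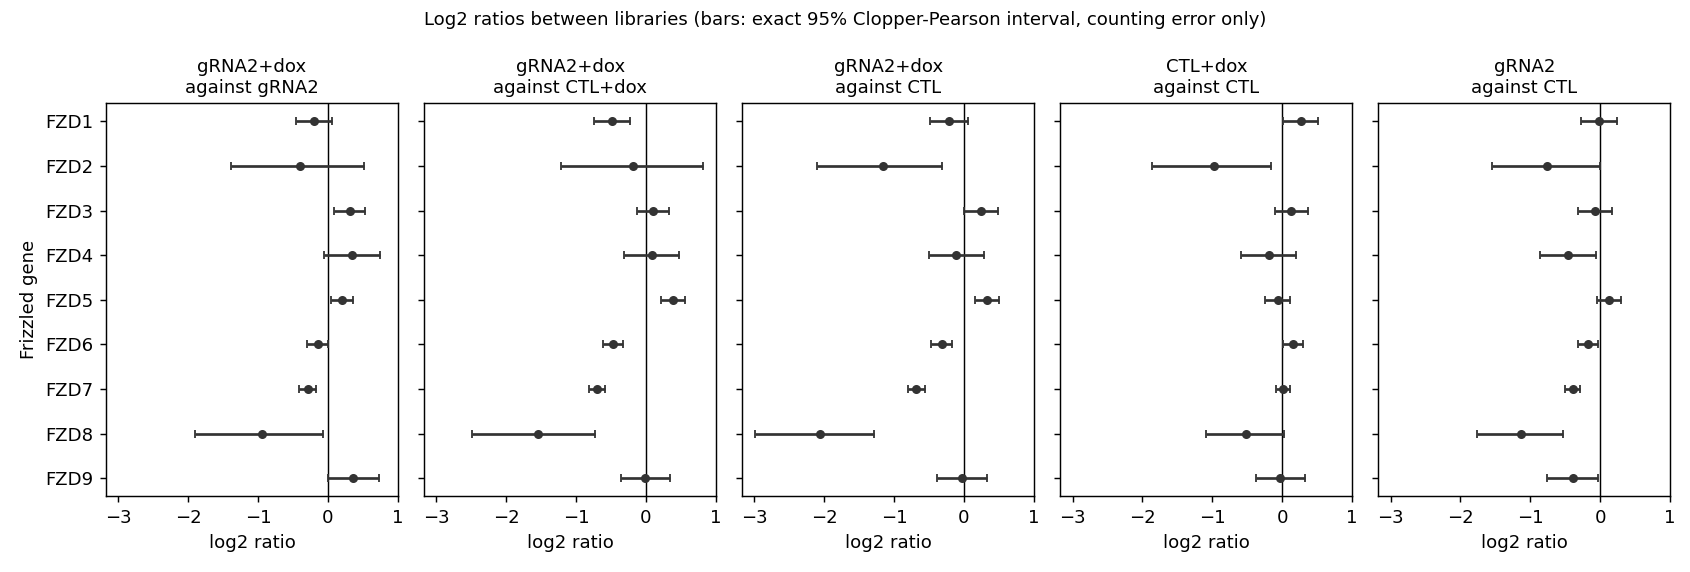
Log2 ratios of the 9 compared receptors in 5 pairs of libraries, with bars for exact 95% Clopper-Pearson intervals of counting error. FZD8 and FZD7 lie below 0 in all 3 comparisons of gRNA2+dox and in gRNA2 against CTL, and FZD5 lies above 0 in all 3 comparisons of gRNA2+dox.

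The family can be summarised for each pair of libraries by the members whose interval excluded 0, beside the share of all 15204 genes for which it did. For gRNA2+dox against gRNA2, 2 of 9 members lay below 0, FZD7 and FZD8, and 3 above it, FZD3, FZD5 and FZD9, with 17.3% of all genes below and 13.6% above. With total counts FZD9 spanned 0 and FZD6 lay below 0. Against CTL+dox, 4 members lay below 0, FZD1, FZD6, FZD7 and FZD8, and FZD5 above it, with 19.4% of all genes below and 20.8% above. Against CTL, 4 lay below, FZD2, FZD6, FZD7 and FZD8, and FZD3 and FZD5 above, with 14.7% of all genes below and 18.6% above, and FZD3 spanned 0 with total counts and with DESeq2 size factors. The 3 comparisons share the gRNA2+dox library, so their counts are not separate evidence. FZD7 and FZD8 were below 0 in all 3 and FZD5 above 0 in all 3.

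In the libraries that bear on the background, CTL+dox against CTL had FZD2 below 0 and FZD1 and FZD6 above it, with 14.3% of all genes below and 16.6% above. The positions of FZD1 and FZD6 depended on the scaling, since with total counts both spanned 0, FZD1 at 0.24 (-0.01 to 0.49). For gRNA2 against CTL, without doxycycline in either, 6 of 9 members lay below 0, FZD2, FZD4, FZD6, FZD7, FZD8 and FZD9, and 0 lay above it, with 11.8% of all genes below and 19.7% above. With the reads of both strands FZD4 spanned 0 and the count was 5. This was the comparison with the most members on one side. The median log2 ratio of the members was -0.39 there, against 0.03 over all genes. The members in gRNA2+dox had medians of -0.14, -0.18 and -0.21 relative to gRNA2, CTL+dox and CTL, beside -0.02, 0.00 and 0.01 over all genes. The median of CTL+dox against CTL was -0.02 for the members and 0.01 for all genes.

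A stricter call used the cutoffs of the study, a log2 ratio below -1 together with a bound of the ratio, set from its counting error, below -0.5. FZD8 alone among the members was called lower, against CTL+dox, where 1.03% of all genes were, and against CTL, where 0.848% were. Against gRNA2 no member was called lower, with 0.296% of all genes called. FZD8 was not called lower in gRNA2 against CTL either, where its log2 ratio was -1.13, but it was with the log2 ratio alone, with a laxer bound, or with libraries scaled by total counts. FZD7 was past the bound against CTL+dox and CTL but short of the log2 ratio of -1. Ranked among all 15204 genes from the lowest log2 ratio upwards, FZD8 was number 194 against CTL+dox and FZD7 number 863. The study had picked FZD8 from its own list of lower genes in these libraries, made with these cutoffs. The call and rank of FZD8 are therefore not independent evidence.

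**Figure D3:**
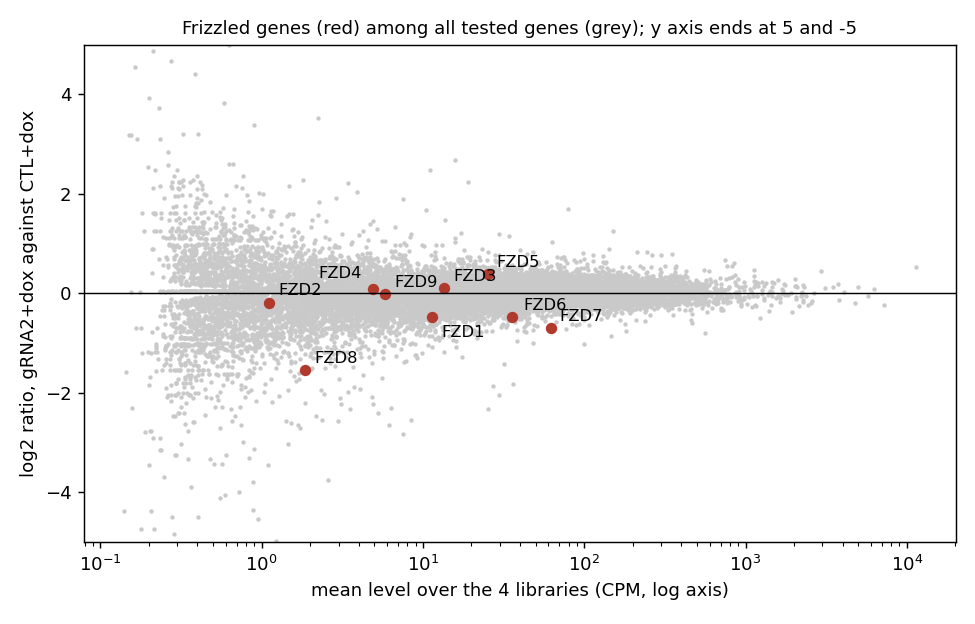
Log2 ratio of gRNA2+dox to CTL+dox against the mean level over the 4 libraries (CPM, log axis) for the tested genes (grey) and the 9 receptors (red), with genes beyond 5 or -5 not shown. FZD8 lies at -1.54 with a low level, FZD7 at -0.69 with the highest level of the family, and FZD5 at 0.39 on the upper side.

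Reads on the whole family numbered 3570, 4043, 3876 and 3114 in CTL, CTL+dox, gRNA2 and gRNA2+dox. Scaled to library size these were 175, 179, 149 and 143 CPM, so the libraries of gRNA2 cells held fewer Frizzled reads than those of the control cells. The log2 ratio of the family sum was -0.33 for gRNA2+dox against CTL+dox (-0.40 to -0.26) and -0.23 for gRNA2 against CTL (-0.30 to -0.17), but -0.06 for gRNA2+dox against gRNA2 (-0.13 to 0.01). Much of the sum was FZD7. Without it, the ratio was -0.13 for gRNA2+dox against CTL+dox (-0.21 to -0.04), -0.13 for gRNA2 against CTL (-0.21 to -0.04) and 0.06 for gRNA2+dox against gRNA2 (-0.03 to 0.14).

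The make-up of the family reads shifted as well. FZD7 made up 41.7% of them in CTL (exact 95% binomial interval 40.1% to 43.3%), 41.0% in CTL+dox (39.5% to 42.5%), 37.3% in gRNA2 (35.8% to 38.9%) and 31.9% in gRNA2+dox (30.3% to 33.6%). FZD5 made up 13.4% in CTL (12.3% to 14.6%), 12.5% in CTL+dox (11.5% to 13.6%), 17.1% in gRNA2 (15.96% to 18.4%) and 20.6% in gRNA2+dox (19.2% to 22.1%). The shares of these receptors thus moved in opposite directions, while FZD6 held between 21.2% and 23.3% in all 4 libraries. Shares of a sum are tied, so a smaller FZD7 share by itself enlarges the others. For gRNA2 against CTL the FZD5 share was larger, while the log2 ratio of FZD5 itself, 0.12 (-0.05 to 0.29), spanned 0. FZD6 held its share while its level went from 37.7 CPM in CTL to 30.2 CPM in gRNA2+dox. FZD3 went from 7.28% in CTL to 10.6% in gRNA2+dox, and FZD8 from 1.79% to 0.514%.

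**Figure D4:**
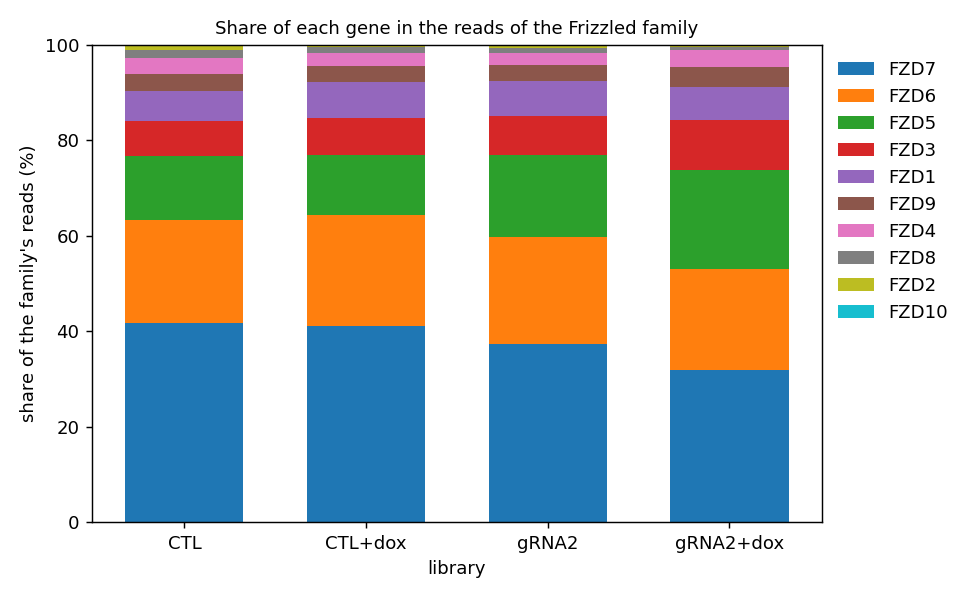
Share of each receptor in the reads of the family (percent, stacked bars) in each of the 4 libraries. The FZD7 part shrinks from 41.7% in CTL to 31.9% in gRNA2+dox, while the FZD5 part grows from 13.4% to 20.6%.

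The number of FZD5 reads per FZD7 read was 0.322, 0.305, 0.459 and 0.647 in CTL, CTL+dox, gRNA2 and gRNA2+dox. Between the CTL+dox and CTL libraries no difference in this ratio was detectable, at -0.08 on the log2 scale (-0.29 to 0.14, counting error only). In the gRNA2+dox library it was higher than in the gRNA2 library by 0.49 (0.29 to 0.69). It was also higher in gRNA2 than in CTL, by 0.51 (0.31 to 0.72), and gRNA2+dox exceeded CTL+dox by 1.08 (0.88 to 1.29). FZD6 reads per FZD7 read were 0.516, 0.570, 0.601 and 0.665 in CTL, CTL+dox, gRNA2 and gRNA2+dox, and gRNA2+dox differed from gRNA2 by 0.15 with an interval (-0.04 to 0.34) that spans 0.

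Whether a doxycycline difference was particular to cells with gRNA2 was asked by subtracting the log2 ratio of CTL+dox to CTL from that of gRNA2+dox to gRNA2. For TCOF1 the difference was -0.76 (-0.97 to -0.55), on which the exact interval again covers counting error only. It was below 0 for 3 members, at -0.46 for FZD1 (-0.83 to -0.09), -0.30 for FZD6 (-0.50 to -0.09) and -0.30 for FZD7 (-0.46 to -0.14), where 15.2% of all genes lay below 0. It was above 0 for FZD5, at 0.27 (0.02 to 0.51), where 11.7% of all genes lay above 0 by an approximate interval that also put FZD4 there. The exact interval of FZD4 spanned 0, at 0.54 (-0.02 to 1.11). FZD8, for all its low value in gRNA2+dox, had a difference of -0.41 with a wide interval (-1.53 to 0.64), so a doxycycline difference larger in gRNA2 cells than in control cells was not detectable at this depth. FZD2, FZD3 and FZD9 also spanned 0, at 0.58 (-0.72 to 1.87), 0.18 (-0.16 to 0.51) and 0.39 (-0.13 to 0.90). Such a difference can come from either cell population. For FZD1 and FZD6 the ratio within gRNA2 cells spanned 0, at -0.19 (-0.46 to 0.07) and -0.14 (-0.29 to 0.00). With total counts FZD6 lay below 0 there. Their ratios within control cells were 0.27 and 0.15, and both spanned 0 with total counts. For FZD5 and FZD7 the ratio within gRNA2 cells excluded 0, at 0.21 and -0.29.

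The proteins of the family, translated from GENCODE transcripts, have 540 to 706 residues, and each holds 1 copy of the conserved Dishevelled-binding motif that follows the last membrane pass. FZD1, FZD2 and FZD7 are the most alike, at 81.4% identity for FZD1 with FZD2, 81.3% for FZD1 with FZD7 and 80.5% for FZD2 with FZD7. Their transcripts differed in pattern all the same, with FZD2 low outside CTL, FZD1 highest in CTL+dox and FZD7 level between the controls. FZD3 and FZD6 share 54.6% and FZD9 and FZD10 share 65.7%. Sequence shared with other transcripts was small, since at most 2.20% of the 50-base words of a member, in FZD2, occurred in another gene, and 0 did in FZD6, FZD9 and FZD10. FZD8 overlaps MIR4683 on the same strand over 81 bases.

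The genes that work with Frizzled receptors were described from lists by role, 91 genes of which 68 were compared. By the cutoffs no gene among them was called higher in gRNA2+dox. The share of all genes called higher is not given here, so that count has no background to be read against. Lower calls numbered 1, 5 and 4 in the comparisons of gRNA2+dox with gRNA2, CTL+dox and CTL, next to 0.296%, 1.03% and 0.848% of all genes called lower. By intervals, 14 of the 68 lay below 0 and 7 above it against gRNA2, or 20.6% and 10.3%, beside 17.3% and 13.6% of all genes. Against CTL+dox, 21 lay below and 15 above, or 30.9% and 22.1%, beside 19.4% and 20.8%, and against CTL 16 lay below and 11 above, or 23.5% and 16.2%, beside 14.7% and 18.6%. The counts for single lists are to be read against the same shares of all genes. The genes called were SMO, the ligand WNT5B, the secreted antagonists DKK2 and SOSTDC1, and SHISA2. SMO, the Hedgehog transducer and closest relative of the Frizzleds, had 85, 126, 83 and 56 reads in CTL, CTL+dox, gRNA2 and gRNA2+dox. Its log2 ratio was -1.12 against CTL+dox (-1.61 to -0.66), where it was called lower, and -0.31 against gRNA2 (-0.83 to 0.19).

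Among the ligands, 5 of the 13 compared lay below 0 and 1 above it against CTL+dox, and 1 below and 2 above against gRNA2. WNT5B, a ligand of the non-canonical routes, had 190, 207, 132 and 84 reads in CTL, CTL+dox, gRNA2 and gRNA2+dox and was called lower against CTL+dox, at -1.25 (-1.64 to -0.88), and against CTL, at -1.27 (-1.66 to -0.90). WNT7B, the most abundant ligand per kilobase, had 27.2, 26.7, 28.9 and 31.8 RPKM in the same order, and its ratio to gRNA2 was 0.14 (0.07 to 0.21) and to CTL+dox 0.25 (0.18 to 0.32). WNT9A followed with 14.5, 15.9, 12.8 and 14.8 RPKM. The level of WNT7B was thus slightly higher in the knockout library than in these libraries. Of 5 genes of ligand making and inactivation, 2 lay below 0 and 1 above against gRNA2, and 3 below and 1 above against CTL+dox. Those of ligand release, WLS and PORCN, differed in direction: PORCN, which attaches the lipid of WNT proteins, was at 0.30 against gRNA2 (0.17 to 0.44), and WLS, their carrier, at -0.18 (-0.28 to -0.08).

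Of 7 secreted antagonists, 1 lay below 0 and 1 above against gRNA2, and 3 below and 1 above against CTL+dox. SOSTDC1, which binds LRP co-receptors, had 175, 230, 118 and 45 reads in CTL, CTL+dox, gRNA2 and gRNA2+dox. It was called lower against all 3 libraries, with log2 ratios of -1.13 to gRNA2 (-1.67 to -0.63), -2.30 to CTL+dox (-2.80 to -1.84) and -2.04 to CTL (-2.56 to -1.58). DKK2, another LRP antagonist, had 13, 15, 3 and 2 reads, and its ratio to CTL+dox of -2.59 has an interval from -6.03 to -0.76. DKK2 was also called lower in gRNA2 against CTL. SFRP1, the most abundant antagonist, had 30.2, 30.5, 31.5 and 32.9 RPKM in CTL, CTL+dox, gRNA2 and gRNA2+dox, and DKK1 had 6.55, 7.80, 6.90 and 7.90 RPKM. In the turnover list, SHISA2, which holds immature Frizzled proteins inside the cell, had 43, 57, 30 and 16 reads and was called lower against CTL+dox, at -1.76 (-2.69 to -0.97), and against CTL, at -1.49 (-2.45 to -0.67). TMEM79 and LGR4 led that list, in which 1 of 6 genes lay below 0 and 0 above against gRNA2 and 2 below and 1 above against CTL+dox, with 12.3 to 13.8 and 10.1 to 11.4 RPKM.

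LRP5, the most abundant co-receptor per kilobase, had 11.1, 10.2, 11.2 and 10.4 RPKM in CTL, CTL+dox, gRNA2 and gRNA2+dox, and RYK had 7.59, 7.92, 7.43 and 7.75. Of the 6 co-receptors compared, 1 lay below 0 and 0 above in each comparison of gRNA2+dox. The heparan sulphate carriers SDC1, at 174 to 194 RPKM, and GPC4, at 16.6 to 20.4, led the other receptor partners, of which 1 of 6 lay below 0 and 1 above against gRNA2, and 3 below and 1 above against CTL+dox. Of the 14 signal transducers, all compared, 8 lay above 0 and 2 below against CTL+dox, where 20.8% of all genes lay above and 19.4% below. Against gRNA2, 2 lay above and 4 below, where 13.6% of all genes lay above and 17.3% below. GSK3A and DVL1 were the most abundant of these, at 41.7 to 52.6 and 29.3 to 33.3 RPKM. Of the 10 planar polarity genes, led by DAAM1 and VANGL1 at 8.68 to 9.55 and 7.29 to 8.46 RPKM, 3 lay below 0 and 0 above against gRNA2, and 1 below and 2 above against CTL+dox.

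The genes whose profile over the 4 libraries lay nearest to that of 2 members were listed, FZD8 and, as the receptor with the most reads, FZD7. Nearness was the Euclidean distance of centred log2 CPM over 4 libraries, among 12467 genes with at least 50 reads in 1 library. For FZD8 they were JAZF1 (distance 0.240), CYP2U1 (0.284) and KCNS3 (0.319). JAZF1 had 86, 67, 59 and 26 reads in CTL, CTL+dox, gRNA2 and gRNA2+dox. For FZD7 they were RHPN1 (0.0300), PPP1R1B (0.0311) and CEBPA (0.0424), and CEBPA had 1051, 1148, 1031 and 716 reads in the same order. With 4 points, such nearness is a description of shape alone.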

How the data were processed

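RNA of MDA-MB-468 mammospheres, 1 library for each of 4 conditions, was analysed from the deposited counts of reads per gene, which the authors made with fastp trimming and STAR alignment and did not normalize. The submitters' processing notes name STAR and the build hg38, and the version of STAR and the annotation are not given in the sources used here. STAR counts reads that map to 1 place, so near-identical copies lose reads. Lines for unassigned reads were used only to describe the libraries.

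The members and gene lists were chosen with earlier results of these data known. Groups followed the sample titles. The TMM factors of edgeR 4.0.16, run in R 4.3.3, scaled the unstranded counts, and log2 ratios used a prior count of 0.5. A gene entered where 1 or more libraries gave it 10 counts or more. Python 3.11.15, numpy 2.4.6, scipy 1.17.1 and pandas 2.3.3 gave exact 95% Clopper-Pearson intervals and, for differences of doxycycline ratios and of paired genes, exact conditional intervals of an odds ratio. The cutoffs were those of the study (log2 ratio past 1, bound past 0.5), with the outer 1% quantile, nearer 0, of the posterior ratio (Jeffreys prior) in place of GFOLD, which was not run. This step was tested on simulated Poisson counts, which hold no variation between cultures, so the test does not bear on that variation. Over all genes the difference of doxycycline ratios used an approximate normal interval.

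Lengths, overlaps and proteins came from GENCODE 44 lifted to GRCh37, matched by symbol, with RPKM computed from the union of exons. Positions and promoter sequences came from RefSeq on GRCh38.p14, where 5 of the 10 members had a promoter. Positions of FZD3 and FZD6 are not reported here. Precision was set by the reads on each gene, from 16 for FZD8 to 1657 for FZD7 at the extremes of those genes. Named genes were all members, TCOF1, list genes past the cutoffs in a comparison of gRNA2+dox, the 2 most abundant genes per kilobase of each list, and the 3 nearest profiles to FZD7 and FZD8. The scaling was also done with total counts and with DESeq2 1.42.0 size factors. Other alternatives were a minimum of 50 counts or none, a prior of 5, a 5% bound, the fold alone, a pooled reference, both strands and the longest transcript.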

Additional observations from a re-analysis of the deposited data

Results flagged for a closer look

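In 6 members the doxycycline log2 ratio had opposite signs in cells with gRNA2 and in control cells. In none of them did the counting intervals of both ratios exclude 0, so the contrast of signs rests on values near 0. The share of all genes with opposite signs is not given here. The difference between the ratios was -0.46 for FZD1, 0.54 for FZD4, 0.27 for FZD5, -0.30 for FZD6, -0.30 for FZD7 and 0.39 for FZD9. With 1 library per condition the difference was not tested across cultures. Counting intervals of the difference excluded 0 for FZD1, FZD5, FZD6 and FZD7 and spanned 0 for FZD4 and FZD9. With the reads of both strands summed, the difference for FZD4 was 0.36.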

How the results depend on the processing

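No called result changed direction in any alternative, and 35 recomputed values were labelled as moved against 598 labelled as close. The label of close allowed a tolerance, and some intervals crossed 0 within it. With total counts against gRNA2, FZD6 went below 0 and FZD9 came to span 0. With both strands, FZD4 came to span 0 in gRNA2 against CTL. The tally of labels therefore does not show that the interval of each member was stable. No paired analysis was possible because 1 library stood for each condition. Replicates could not be left out for the same reason. Counts of members moved as follows. With 1 reference pooled from the 3 other libraries, 1 member was called lower by the cutoffs (0 against gRNA2), 4 lay below 0 (2 against gRNA2) and 2 above 0 (1 against CTL+dox). With DESeq2 size factors and with total counts, 1 member lay above 0 against CTL in place of 2, since FZD3 spanned 0. With total counts, 0 members lay above 0 in CTL+dox against CTL in place of 2, FZD1 and FZD6, and 1 was called lower in gRNA2 against CTL in place of 0, as with the 5% bound and the fold alone. With at least 50 counts, 0 members lay below 0 in CTL+dox against CTL in place of 1, since FZD2 then left the comparison. With the fold alone, 2 members were called lower against CTL in place of 1. Of the other WNT reception genes called in gRNA2+dox, DKK2 had the fewest reads, at most 15 in a library. Counts of calls among the WNT reception genes were small and moved too. With the 5% bound, 2 were lower and 1 higher against gRNA2 (main 1 and 0), 8 lower against CTL+dox (5), 1 higher against CTL (0), 1 higher in CTL+dox against CTL (0) and 2 lower in gRNA2 against CTL (1). With the fold alone, 3 were lower and 1 higher against gRNA2, 8 lower and 1 higher against CTL+dox, 2 higher against CTL, 1 lower and 1 higher in CTL+dox against CTL (0 and 0), and 3 lower in gRNA2 against CTL. In that last comparison no filter gave 2 and at least 50 counts gave 0. The looser or stricter construction of these rules sets their counts, and for the scalings the cause was not tested. FZD4 with both strands had 0.918 to 1.06 RPKM, against 0.546 to 0.749, and FZD6 by its longest transcript 8.11 to 11.2 RPKM, against 7.43 to 10.3. Depth limits FZD2, FZD8 and FZD10 most, with 17, 16 and 0 reads in gRNA2+dox.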

Other observations

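RSPO1, a secreted ligand that raises Frizzled levels at the cell surface, was below the minimum of 10 reads and was not compared. It had 8, 4, 0 and 0 reads in CTL, CTL+dox, gRNA2 and gRNA2+dox, values chosen after they were seen and too few for a ratio.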
